A study of Mus musculus with 8 samples.

Results

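Of the 20170 genes in the deposited single-cell count matrix, 10 are described here, 6 integrin subunits and 4 further genes of T cell adhesion and the cytoskeleton: Itga4, Itgae, Itgal, Itgb1, Itgb2, Itgb7, Cd44, Selplg, Vim and S100a10. They were chosen by name, with earlier results of these data known. Their unique molecular identifiers (UMIs, 1 per captured transcript) were summed over the cells of each library that the deposited cell table assigns to the CD4 or the CD8 class and, within a class, to each subset. The libraries hold splenic T cells of WT mice and of SDHA-KO mice (Sdha fl/fl CD4-Cre), taken either unstimulated or after 48 h of culture with soluble anti-CD3 and anti-CD28 antibodies, with 2 libraries in each of the 4 groups and 12846 cells in all. Sdha encodes the flavoprotein subunit of mitochondrial complex II. The methods of the study describe mice of 8 to 12 weeks on a B6 background and a Cre transgene driven by Cd4 sequences, and the labels name a magnetic pan T cell kit for the isolation from spleen. The labels state neither whether the WT mice carried the floxed allele nor whether the 2 libraries of a group came from different mice, so the p-values measure the spread between libraries, which may be technical.

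Integrins are pairs of an alpha and a beta chain that hold T cells to endothelium, matrix and other cells. Itga4 pairs with Itgb1 in the receptor for VCAM-1 and fibronectin (VLA-4) and with Itgb7 in the gut-homing receptor for MAdCAM-1, Itgae pairs with Itgb7 in the E-cadherin receptor CD103, and Itgal pairs with Itgb2 in LFA-1, which binds ICAM-1 at the immunological synapse. Cd44 is a hyaluronan receptor that activated and memory T cells carry, Selplg encodes PSGL-1, the mucin that selectins bind when a T cell rolls on endothelium, Vim is the intermediate filament of leukocytes, and S100a10 is the small partner of annexin A2 at the inner face of the plasma membrane.

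The 250 bases before the RefSeq start site of 4 members are shown because their shares of RNA took different courses after stimulation: those of Itga4 and its partner Itgb7 fell together, that of Itgb1, the other partner of Itga4, did not fall, and that of Cd44 rose. The sequences are from RefSeq (GRCm38.p6, the primary sequence of the mm10 build named in the submitters' processing notes), and 5 of the 10 members matched an entry. Capitals mark letters that match 1 of 6 motifs searched on both strands: RUNX TGTGGT, AP-1 TGANTCA, SP1 and KLF GGGCGG, ETS CCGGAAG, the A/T-rich core promoter box TATAAA and the E-box CACGTG.
Itga4, chr2:79255176-79255425, plus strand: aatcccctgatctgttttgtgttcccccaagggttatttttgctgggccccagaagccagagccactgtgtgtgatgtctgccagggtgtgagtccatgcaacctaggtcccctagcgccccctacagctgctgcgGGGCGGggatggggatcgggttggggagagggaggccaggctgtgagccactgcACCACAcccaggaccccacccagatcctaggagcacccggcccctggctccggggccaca
Itgb7, chr15:102231936-102232185, minus strand: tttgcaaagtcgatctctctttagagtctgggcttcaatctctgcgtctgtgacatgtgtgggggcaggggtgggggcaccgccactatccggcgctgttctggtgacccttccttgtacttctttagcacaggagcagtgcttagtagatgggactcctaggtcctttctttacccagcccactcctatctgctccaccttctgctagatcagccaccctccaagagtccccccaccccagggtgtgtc
Itgb1, chr8:128685404-128685653, plus strand: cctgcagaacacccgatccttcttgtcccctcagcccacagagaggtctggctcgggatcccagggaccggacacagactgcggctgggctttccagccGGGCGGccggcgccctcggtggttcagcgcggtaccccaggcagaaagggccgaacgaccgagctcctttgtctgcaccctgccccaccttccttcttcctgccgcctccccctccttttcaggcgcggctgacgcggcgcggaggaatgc
Cd44, chr2:102901666-102901915, minus strand: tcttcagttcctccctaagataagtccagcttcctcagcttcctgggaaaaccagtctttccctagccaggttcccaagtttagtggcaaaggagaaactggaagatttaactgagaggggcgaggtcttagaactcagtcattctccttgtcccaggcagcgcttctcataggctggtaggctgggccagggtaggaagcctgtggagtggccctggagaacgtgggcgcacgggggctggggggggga
The Itga4 window held GGGCGG 114 bases and, on the complementary strand, the RUNX letters (printed as ACCACA) 60 bases before the start. The Itgb1 window held GGGCGG 151 bases before the start. The windows of Itgb7 and Cd44 held none of the 6 motifs. Of the 32851 RefSeq windows of this length, 32.7% held GGGCGG, 14% TGTGGT, 12.4% TATAAA, 6.91% CCGGAAG, 6.75% TGANTCA and 6.02% CACGTG, so these matches are descriptions of the letters only. The Itgb1 window stood apart in its 21 CpG dinucleotides, against 6 in Itga4, 5 in Itgb7 and Cd44 each, and a median of 6 over all windows.

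The summed counts ran from 6776027 to 34087903 UMIs per library in the CD4 class (859 to 1315 cells) and from 3640136 to 22311319 in the CD8 class (325 to 844 cells), with a median per cell of 7055 to 10446 UMIs before and 13152 to 30662 after stimulation. Levels are therefore given as UMIs scaled to a common total with TMM factors (CPM), and shares of RNA and UMIs per cell are kept apart. Sdha, counted from the 3′ end and so not limited to the recombined part of the transcript, was lower in SDHA-KO than WT in both classes and states, with the smallest gap in stimulated CD8 cells (76.2 and 74.9 CPM in WT against 53.3 and 50.4 CPM in SDHA-KO). Of the stimulated SDHA-KO cells in the CD8 class, 59.1% and 56.1% carried a UMI of Trdc, the constant segment of the gamma-delta T cell receptor, against 3.67% and 4.92% in WT. Sdha stood at 73.1 ± 1.17 CPM in those SDHA-KO cells and at 34.4 ± 1.73 CPM in the SDHA-KO CD8 cells without Trdc. The mean over cells of the percent of mitochondrially encoded UMIs was 13.8% to 17.5% in the classes of stimulated WT libraries. In stimulated SDHA-KO libraries it was 3.9% and 3.55% in the CD4 class and 9.1% and 9.91% in the CD8 class. The first stimulated SDHA-KO library had a summed B cell marker level of 306 CPM in its CD8 class, against 57.8 CPM in the second. The summed myeloid marker level was 134 and 148 CPM in stimulated SDHA-KO and 78.2 and 75.9 CPM in stimulated WT CD4 cells. In stimulated CD8 cells it was 126 and 123 CPM against 75.2 and 76.8 CPM. The part of myeloid RNA in the genotype differences was not tested. Cd4 itself stood at 168 to 169 CPM in unstimulated WT CD4 cells and at 598 to 666 CPM in SDHA-KO. Fewer cells of a kind and less RNA per cell cannot be told apart in summed counts, and 23 barcode sequences occurred in more than 1 library.

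Stimulation of WT cells lowered most of these genes as a share of RNA and raised Cd44. In CD4 cells 7 of 10 members passed the test, 1 higher and 6 lower, and in CD8 cells 8, 2 higher and 6 lower (edgeR quasi-likelihood test, Benjamini-Hochberg adjusted over all genes). Of all genes tested, 66.3% passed in CD4 cells (36.2% higher and 30.1% lower) and 65.7% in CD8 cells (35.5% higher and 30.3% lower), so the number of members called was near the background while 6 of the members were called lower in each class. The median log2 fold change over the members was -0.75 in CD4 and -1.12 in CD8 cells, against 0.08 and 0.09 over all genes tested. All fold changes below are log2 values with their standard errors and edgeR adjusted p-values.

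The alpha chain Itga4 showed one of the clearest falls. In WT CD4 cells it was 213 and 257 CPM without and 36.9 and 38.8 CPM with stimulation, a change of -2.64 ± 0.14 (adjusted p = 1.6e-08). In CD8 cells it went from 213 and 207 to 42.3 and 38.4 CPM, a change of -2.38 ± 0.12 (adjusted p = 1.2e-08). Every unstimulated library was above every stimulated library in both classes. Its gut-homing partner Itgb7 stood at 213 and 242 CPM before and 50.4 and 60.1 CPM after stimulation in WT CD4 cells (-2.04 ± 0.12, adjusted p = 4.6e-08), and at 197 and 219 and then 61.3 and 64.0 CPM in WT CD8 cells (-1.73 ± 0.08, adjusted p = 9.4e-09). Again no library of one state overlapped the other. Itgae, which together with Itgb7 forms CD103, was higher in the CD8 than in the CD4 class of WT libraries. It stood at 44.0 and 36.6 CPM in unstimulated and 2.88 and 2.49 CPM in stimulated WT CD8 cells, a change of -3.90 ± 0.19 (adjusted p = 1.1e-08), and between 1.53 and 2.40 CPM in all WT CD4 libraries (-0.45 ± 0.39, adjusted p = 0.33).

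Itgb1 moved otherwise. In WT CD4 cells it stood at 107 and 94.7 CPM before and 102 and 95.0 CPM after stimulation, with overlapping libraries (-0.03 ± 0.09, adjusted p = 0.75). In WT CD8 cells it rose from 64.3 and 42.4 to 110.0 and 99.3 CPM (0.99 ± 0.18, adjusted p = 0.0005), with every stimulated library above every unstimulated one. The LFA-1 chains had small changes. Itgal stood at 74.2 ± 8.82 and 76.2 ± 0.220 CPM in WT CD4 cells (0.04 ± 0.09, adjusted p = 0.74) and at 69.1 ± 9.61 and 80.5 ± 1.17 CPM in WT CD8 cells (0.21 ± 0.10, adjusted p = 0.069). Itgb2 fell in WT CD4 cells from 80.8 and 81.7 to 57.5 and 65.7 CPM (-0.40 ± 0.08, adjusted p = 0.0013) and stood at 69.8 ± 0.614 and 65.3 ± 5.90 CPM in WT CD8 cells (-0.10 ± 0.12, adjusted p = 0.47). With library totals alone as the scale the Itgb2 change in CD8 cells turned to 0.38 (adjusted p = 0.0084), and among cells under 10% mitochondrial UMIs the Itgal change in CD4 cells was -0.32 (adjusted p = 0.012).

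Among the other 4 genes, the hyaluronan receptor Cd44 rose from 36.2 and 32.7 to 108 and 98.4 CPM in WT CD4 cells (1.59 ± 0.12, adjusted p = 5.3e-07) and from 27.1 and 20.3 to 114 and 118 CPM in WT CD8 cells (2.30 ± 0.14, adjusted p = 5.5e-08). Every stimulated library was above every unstimulated one. Selplg, the selectin ligand, fell from 277 and 279.9 to 95.2 and 110.5 CPM in CD4 cells (-1.44 ± 0.10, adjusted p = 1.7e-07) and from 405 and 411 to 164 and 183 CPM in CD8 cells (-1.23 ± 0.09, adjusted p = 3.3e-07). S100a10 fell from 442 and 453 to 185 and 198 CPM in CD4 cells (-1.22 ± 0.09, adjusted p = 2.6e-07) and from 452 and 469 to 159 and 205 CPM in CD8 cells (-1.34 ± 0.11, adjusted p = 6.2e-07). Vim fell from 247 and 205 to 111 and 107 CPM in CD4 cells (-1.05 ± 0.14, adjusted p = 3.5e-05) and from 220.5 and 179.8 to 82.0 and 116 CPM in CD8 cells (-1.01 ± 0.21, adjusted p = 0.0015). For these 3 genes, too, the unstimulated and stimulated WT libraries did not overlap.

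**Figure D1:**
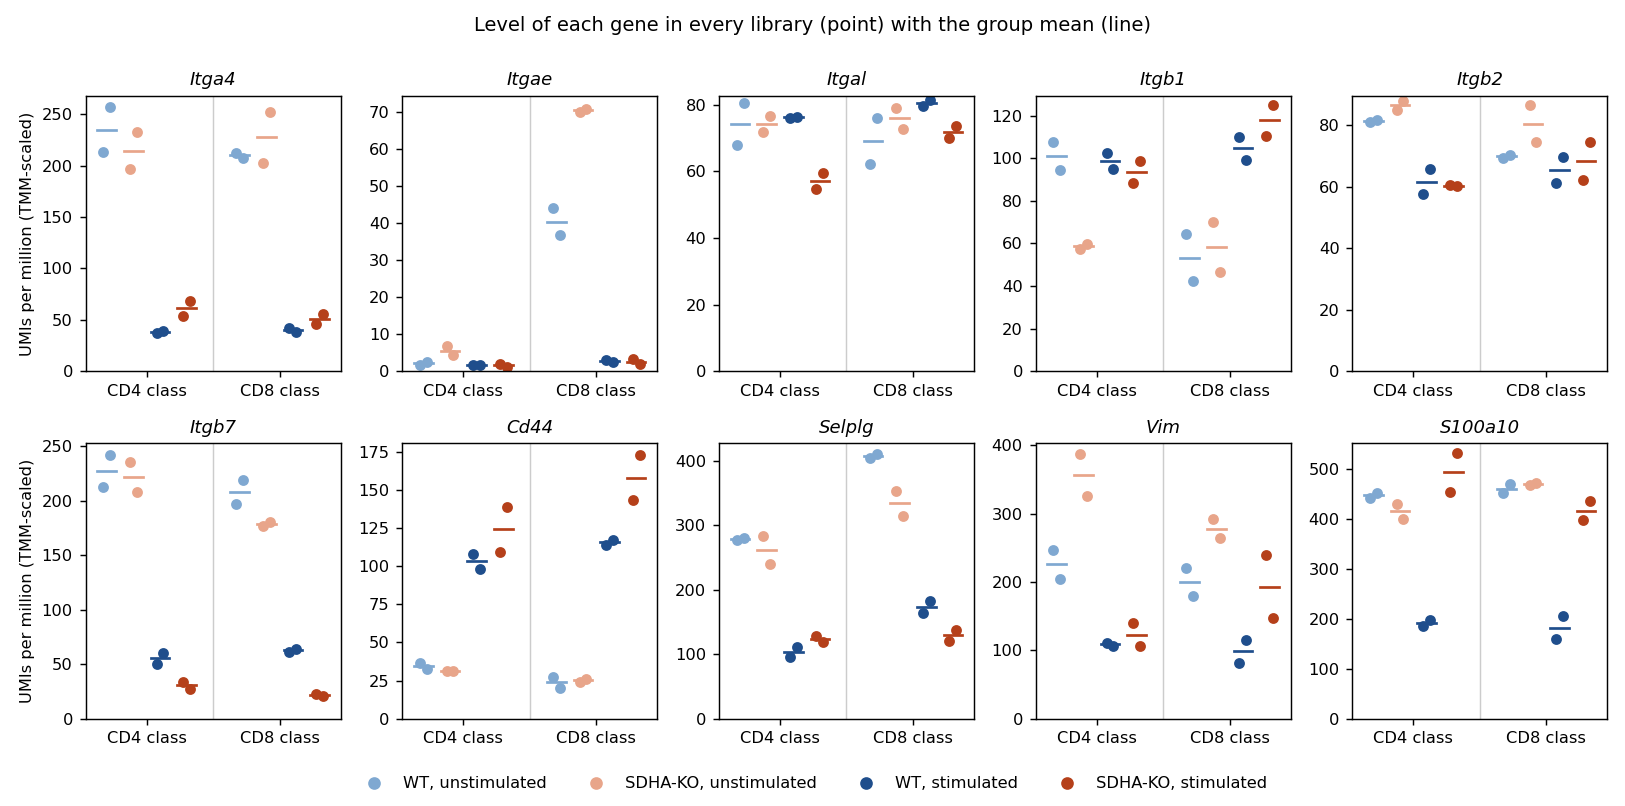
Level of each of the 10 genes (vertical axis, TMM-scaled CPM, from 0) in the CD4 and the CD8 class of every library; points are the 2 libraries of a group and lines their mean. Itga4 and Itgb7 drop after stimulation in both genotypes, whereas S100a10 drops in WT (185 and 198 CPM in stimulated CD4 cells) and stays high in SDHA-KO (454 and 532 CPM).

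A lower share of RNA did not always go with fewer UMIs per cell, since stimulated cells gave more UMIs. Per 100 cells, Itgb7 gave 156 ± 19.4 UMIs in unstimulated and 176 ± 21.8 in stimulated WT CD4 cells, and 163 ± 18.9 and 188 ± 12.6 in WT CD8 cells, so that its number per cell was close before and after stimulation. In SDHA-KO it went from 181 ± 18.6 to 84.9 ± 7.76 in CD4 and from 177 ± 7.48 to 89.4 ± 9.24 in CD8 cells. Itga4 gave 161 ± 26.9 and then 121 ± 4.24 UMIs per 100 WT CD4 cells, and 175 ± 18.1 and then 171 ± 37.5 per 100 SDHA-KO CD4 cells. S100a10 gave 307 ± 15.7 before and 610.0 ± 28.0 after stimulation per 100 WT CD4 cells, and 338 ± 23.2 and 1379.9 ± 217 per 100 SDHA-KO CD4 cells. Cd44 went from 23.6 ± 0.919 to 329 ± 22.3 per 100 WT CD4 cells. Itga4 in both classes and Itgae in CD8 cells (31.4 ± 2.75 before and 8.04 ± 0.522 after stimulation) were the WT values whose mean per cell was lower after stimulation. These numbers also move with sequencing depth per library, and no test was made on them.

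In SDHA-KO cells all 10 members passed the test for stimulation in the CD4 class (3 higher and 7 lower; background 69.8%, 36.6% higher and 33.2% lower) and 7 in the CD8 class (2 higher and 5 lower; background 68.2%, 37.2% higher and 30.9% lower). The members' median was -0.80 in CD4 and -0.38 in CD8 cells, against 0.03 and 0.10 over all genes. Itga4 (-1.82 ± 0.13, adjusted p = 2.2e-07 in CD4, -2.18 ± 0.12, adjusted p = 2.4e-08 in CD8) and Itgb7 (-2.86 ± 0.12, adjusted p = 3.9e-09 and -3.04 ± 0.09, adjusted p = 4.2e-10) fell, and Cd44 rose (1.99 ± 0.12, adjusted p = 5.4e-08 and 2.65 ± 0.14, adjusted p = 1.9e-08). Selplg (-1.08 and -1.37) and Vim (-1.54 and -0.52) fell in both classes, and Itgae fell by 1.79 in CD4 and by 4.77 in CD8 cells. The Vim call in CD8 cells was lost under 4 of the other settings and without 5 of the 8 libraries, and the Itgae call in CD4 cells was lost among cells with a Cd4 UMI and no Cd8a, Cd8b1 or Trdc UMI. S100a10 took another course than in WT. It stood at 429.9 and 399.5 CPM before and 454 and 532 CPM after stimulation in SDHA-KO CD4 cells (0.25 ± 0.09, adjusted p = 0.022, a call lost without the second unstimulated or the second stimulated SDHA-KO library), and at 468 and 471 CPM before and 397 and 437 CPM after stimulation in CD8 cells (-0.17 ± 0.11, adjusted p = 0.17). Among CD8 cells with a Cd8a or Cd8b1 UMI and no Cd4 or Trdc UMI, a strict class, that last change turned to 0.38 (adjusted p = 0.0088).

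Before stimulation, few members differed between SDHA-KO and WT. In CD4 cells Itgb1 was lower and Vim higher, 2 of 10 members where 1.1% of all genes tested passed (0.526% higher and 0.575% lower), and in CD8 cells Itgae was higher, 1 of 10 where 0.947% passed (0.283% higher and 0.664% lower). Itgb1 stood at 107 and 94.7 CPM in the WT and 57.6 and 59.7 CPM in the SDHA-KO CD4 libraries, with no overlap (-0.78 ± 0.09, adjusted p = 0.0035). The call did not hold without the first unstimulated WT library (edgeR adjusted p = 0.087). Vim stood at 247 and 205 CPM in WT and 388 and 326 CPM in SDHA-KO CD4 cells (0.66 ± 0.13, adjusted p = 0.045), and at 220.5 and 179.8 CPM in WT against 292 and 264 CPM in SDHA-KO CD8 cells (0.48 ± 0.22, adjusted p = 0.36). Both SDHA-KO libraries were above both WT libraries in each class, and the CD4 call was lost without any 1 of the 4 unstimulated or the 2 stimulated WT libraries (adjusted p 0.069 to 0.37) and in the strict class (adjusted p = 0.12). The strict CD4 class, which needs a Cd4 UMI, kept 521 of 933 and 540 of 951 unstimulated WT cells. Of the unstimulated SDHA-KO CD4 cells it kept 916 of 1116 and 1042 of 1315, so it selects the genotypes unequally. Itgae stood at 44.0 and 36.6 CPM in WT and 69.9 and 70.8 CPM in SDHA-KO CD8 cells (0.81 ± 0.16, adjusted p = 0.046). Its direction was the same without each library, but the call was lost without any 1 of the 4 unstimulated ones or the first stimulated WT one (adjusted p 0.053 to 0.39). The gamma-delta marker sum was 206 to 282 CPM in these SDHA-KO CD8 cells and 35.9 to 38 CPM in WT, and Itgae was 80.5 ± 6.41 CPM in the SDHA-KO cells without Trdc and 40.1 ± 20.7 CPM in those with it. Cells with a Trdc UMI were also more frequent in the unstimulated SDHA-KO CD4 class, 7.08% and 7.61% against 3.64% and 2.84% in WT. In the CD4 cells without Trdc, Vim was 228 ± 30.5 CPM in WT and 330.0 ± 30.3 CPM in SDHA-KO, and Itgb1 was 103 ± 8.77 and 42.4 ± 5.36 CPM. The SDHA-KO CD4 cells with Trdc stood at 553 ± 169 CPM for Vim, 199.8 ± 31.2 CPM for Itgb1, 269 ± 29.4 CPM for Itgb7 and 20.4 ± 16.6 CPM for Itgae. In CD4 cells Itgae was 1.76 and 2.40 CPM in WT and 6.73 and 4.25 CPM in SDHA-KO (1.38 ± 0.37, adjusted p = 0.11).

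After stimulation the genotypes differed in 5 of 10 members in CD4 cells (3 higher and 2 lower in SDHA-KO) and in 6 in CD8 cells (4 higher and 2 lower). The background was 43.2% of genes in CD4 cells (22.7% higher and 20.5% lower) and 50.4% in CD8 cells (26.8% higher and 23.5% lower), so the number called was near the background. The members' median was 0.11 in CD4 and 0.12 in CD8 cells, against -0.00094 and -0.0096 over all genes. S100a10 and Itga4 were higher and Itgb7 lower in both classes. S100a10 stood at 185 and 198 CPM in the WT and 454 and 532 CPM in the SDHA-KO CD4 libraries (1.37 ± 0.09, adjusted p = 1.1e-06), and at 159 and 205 against 397 and 437 CPM in CD8 cells (1.20 ± 0.10, adjusted p = 6.2e-06). The lowest SDHA-KO library was above the highest WT library in both classes, and the ratio of the group means was 2.58 in CD4 and 2.29 in CD8 cells. Itgb7 stood at 50.4 and 60.1 CPM in WT and 33.5 and 27.6 CPM in SDHA-KO CD4 cells (-0.86 ± 0.12, adjusted p = 0.0002), and at 61.3 and 64.0 against 23.0 and 20.3 CPM in CD8 cells (-1.53 ± 0.09, adjusted p = 6.7e-07), again without overlap. Itga4 stood at 36.9 and 38.8 CPM in WT and 53.4 and 68.6 CPM in SDHA-KO CD4 cells (0.69 ± 0.13, adjusted p = 0.0015). In CD8 cells the Itga4 difference was smaller, 42.3 and 38.4 against 45.6 and 55.2 CPM (0.32 ± 0.11, adjusted p = 0.038), and leaving out any of 5 of the 8 libraries ended the call, as did the strict class and scaling by library totals (adjusted p 0.066 to 0.31).

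Other differences were found in 1 class each or went opposite ways. Selplg was higher in SDHA-KO CD4 cells, 95.2 and 110.5 against 127 and 119 CPM (0.26 ± 0.10, adjusted p = 0.046), a call that 8 alternatives ended (adjusted p 0.050 to 0.30), and lower in SDHA-KO CD8 cells, 164 and 183 against 119.9 and 138 CPM (-0.43 ± 0.09, adjusted p = 0.002), a call that none ended. Itgal was lower in SDHA-KO CD4 cells, 76.1 and 76.4 against 54.6 and 59.6 CPM (-0.42 ± 0.09, adjusted p = 0.0025). Among cells under 10% mitochondrial UMIs, which left 336 and 396 WT and 988 and 1156 SDHA-KO CD4 cells, that difference was -0.12 (adjusted p = 0.36). Cd44 was higher in SDHA-KO CD8 cells, 114 and 118 against 143 and 173 CPM (0.45 ± 0.10, adjusted p = 0.0029), and stood at 108 and 98.4 against 109 and 139 CPM in CD4 cells (0.27 ± 0.10, adjusted p = 0.058). Vim was higher in SDHA-KO CD8 cells, 82.0 and 116 against 239 and 148 CPM (0.97 ± 0.20, adjusted p = 0.0021), with the library of the high B cell marker sum the higher of the pair; the part of B cell RNA was not tested. In the strict CD8 class, 736 and 709 WT against 169 and 147 SDHA-KO cells, the Vim difference was 0.36 (adjusted p = 0.21). In CD4 cells Vim overlapped between the genotypes, 111 and 107 against 139.8 and 106 CPM (0.17 ± 0.13, adjusted p = 0.31). Itgb1, Itgb2 and Itgae did not pass in either class, with log2 fold changes between -0.07 and 0.17.

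**Figure D2:**
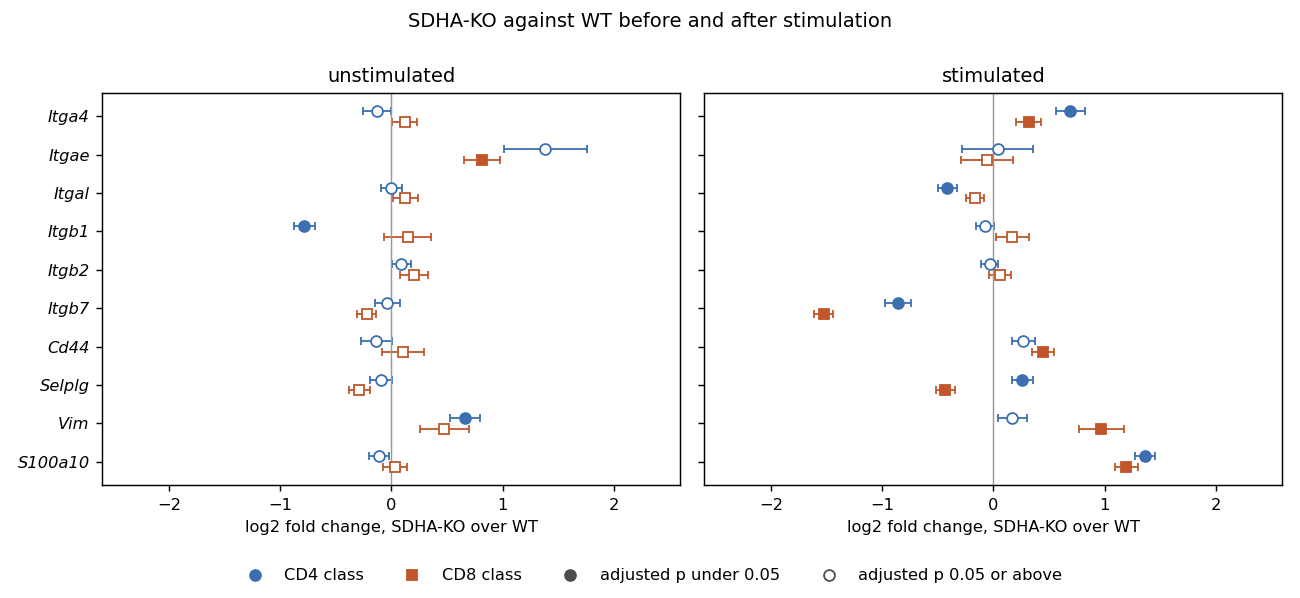
Log2 fold change of SDHA-KO over WT (horizontal axis) for each gene before (left) and after stimulation (right), in the CD4 class (circles) and the CD8 class (squares); bars are standard errors from edgeR and filled symbols have an adjusted p under 0.05. S100a10 (1.37 and 1.20) and Itgb7 (-0.86 and -1.53) lie far from 0 in the stimulated panel and nearer to 0 in the unstimulated one.

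The difference between the genotypes was itself tested between the states. In CD4 cells 5 members passed (background 21.4%, 10.9% positive and 10.5% negative): the difference in the stimulated minus that in the unstimulated cells was 1.47 ± 0.12 (adjusted p = 3.8e-05) for S100a10, 0.82 ± 0.18 (adjusted p = 0.0093) for Itga4, 0.71 ± 0.13 (adjusted p = 0.0028) for Itgb1, -0.41 ± 0.13 (adjusted p = 0.04) for Itgal and -0.82 ± 0.16 (adjusted p = 0.0054) for Itgb7. In CD8 cells 3 passed (background 23.8%, 13.5% positive and 10.2% negative), 1.17 ± 0.15 (adjusted p = 0.0005) for S100a10, -0.87 ± 0.29 (adjusted p = 0.047) for Itgae and -1.31 ± 0.12 (adjusted p = 0.00012) for Itgb7. The Itgae difference was 0.022 among cells under 10% mitochondrial UMIs, and its call was also lost in the strict class and without any 1 of 7 of the 8 libraries. The Itgal call in CD4 cells was lost under 11 alternatives, and the difference was -0.12 (adjusted p = 0.62) among cells under 10% mitochondrial UMIs. The Itga4 call in CD4 cells was lost without the second unstimulated WT library (0.68, adjusted p = 0.061). S100a10 and Itgb7 thus differed between the genotypes by more in stimulated than in unstimulated cells of both classes.

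Itga4 can pair with Itgb1 or Itgb7, and the balance of the 2 beta chains was followed as the Itgb1 percentage of Itgb1 plus Itgb7 UMIs. The chains may be captured with unequal efficiency, so the change between groups is read and not the percentage itself. Itgb7 also pairs with Itgae, so the percentage does not measure the pairs that Itga4 forms. Itgb1 also differed between subsets, with 644 ± 25.4 CPM in Tem and 29.6 ± 2.49 CPM in naive cells of the unstimulated WT CD4 class. The part of the subset mix in the percentage was not tested. In unstimulated CD4 cells the percentage was 33.6% and 28.2% in the WT and 19.7% and 22.3% in the SDHA-KO libraries, and after stimulation 67.0% and 61.3% in WT and 72.6% and 78.2% in SDHA-KO. In CD8 cells it was 24.6% and 16.2% in WT and 28.4% and 20.5% in SDHA-KO before, and 64.2% and 60.8% in WT and 82.8% and 86.0% in SDHA-KO after stimulation. The Itgb1 percentage was higher in every stimulated than in every unstimulated library of both classes, and after stimulation both SDHA-KO libraries stood above both WT libraries in each class. Over the full classes, the widest 95% Wilson interval, which covers counting error only, was 25.4% to 31.5% and belonged to the first unstimulated SDHA-KO library in the CD8 class. With 2 libraries against 2 an exact permutation test cannot go below p = 0.33, and none was made. In the strict classes the mean went from 35.5% to 67.2% in WT and from 16.7% to 76.4% in SDHA-KO CD4 cells, and from 19.8% to 62.2% in WT and from 18.2% to 84.4% in SDHA-KO CD8 cells. The strict CD4 class left out a larger part of the unstimulated WT than of the unstimulated SDHA-KO cells.

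**Figure D3:**
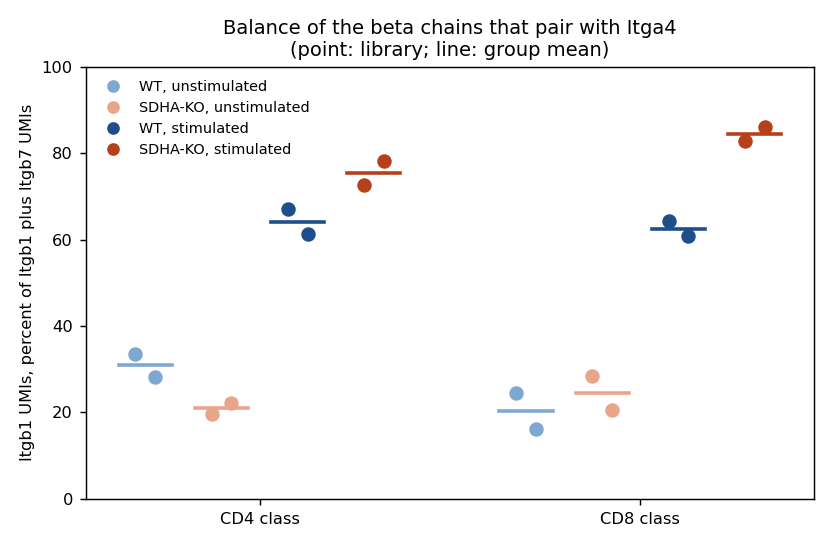
Itgb1 UMIs as a percentage of Itgb1 plus Itgb7 UMIs (vertical axis, 0 to 100) by group in the CD4 and the CD8 class; points are libraries and lines group means. The means rise from 30.9% to 64.1% in WT and from 21.0% to 75.4% in SDHA-KO CD4 cells, and from 20.4% to 62.5% and from 24.4% to 84.4% in CD8 cells.

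Whether the classes responded differently was tested within libraries, on the CD4 and the CD8 sums of each. For stimulation in WT, 4 members passed (background 12.1%, 5.25% positive and 6.86% negative). The stimulation change in CD8 minus that in CD4 cells was -3.43 ± 0.35 (adjusted p = 1.8e-05) for Itgae, 1.05 ± 0.15 (adjusted p = 0.00028) for Itgb1, 0.74 ± 0.14 (adjusted p = 0.0025) for Cd44 and 0.34 ± 0.09 (adjusted p = 0.021) for Itgb7. The change of Itgae was more negative and those of Itgb1 and Cd44 more positive in CD8 than in CD4 cells, while the Itgb7 call was lost in DESeq2 and without 3 of the WT libraries (adjusted p 0.089 to 0.17). For SDHA-KO against WT before stimulation no member passed (edgeR, 0 of 10; 2 members, Itga4 and Itgb1, had an unadjusted p under 0.05; DESeq2 also called 0; background 0.0421%, 0.014% positive and 0.0281% negative). After stimulation 5 members passed (background 25.4%, 14.2% positive and 11.1% negative). The SDHA-KO difference was more negative in CD8 than CD4 cells for Selplg (-0.69 ± 0.08, adjusted p = 5.8e-05), Itgb7 (-0.67 ± 0.09, adjusted p = 0.00017) and Itga4 (-0.35 ± 0.10, adjusted p = 0.019), and more positive for Vim (0.79 ± 0.14, adjusted p = 0.00077) and Itgal (0.26 ± 0.07, adjusted p = 0.017). Selplg and Itgb7 kept their call in every alternative run; in the strict classes the difference was 0.14 (adjusted p = 0.66) for Vim, 0.03 (adjusted p = 0.89) for Itgal and -0.40 (adjusted p = 0.068) for Itga4, and that of S100a10 turned from -0.15 ± 0.08 (adjusted p = 0.18) to 0.36 (adjusted p = 0.011).

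The deposited cell table divides each class into subsets that the study named naive, regulatory (Treg), central memory (Tcm) and effector memory (Tem) from Cd44, Itga4 and other genes, so levels between subsets are described without a test. In unstimulated WT CD4 cells, Tem stood above naive cells for S100a10 (1280.4 ± 117 against 350.4 ± 7.22 CPM), Itgb1 (644 ± 25.4 against 29.6 ± 2.49 CPM), Cd44 (139 ± 6.93 against 20.5 ± 2.53 CPM), Itga4 (637 ± 57.1 against 195 ± 31.7 CPM) and Itgal (147 ± 17.1 against 68.7 ± 9.47 CPM), whereas Selplg was 245 ± 26.1 against 316 ± 0.645 CPM. Treg lay between them for S100a10 (577 ± 31.6 CPM) and Itgb1 (104 ± 31.0 CPM). In unstimulated SDHA-KO CD4 cells Itgb1 was 29.2 ± 1.86 CPM in naive cells, 338 ± 1.27 CPM in Tem and 54.3 ± 4.33 CPM in Treg. Tested between the genotypes within subsets, it passed in Tem1 alone and missed the threshold in Treg (-0.94 ± 0.24, adjusted p = 0.071). Tem made up 9.22% and 8.31% of WT and 6.0% and 6.92% of SDHA-KO CD4 cells. Itgae in unstimulated WT CD8 cells was 51.4 ± 7.51 CPM in naive and 6.04 ± 6.0 CPM in Tcm cells, and 95.2 ± 8.25 and 21.3 ± 5.99 CPM in SDHA-KO. Within the unstimulated CD4 class, Itgae was 11.9 ± 6.27 CPM in WT and 30.0 ± 4.57 CPM in SDHA-KO Treg. Naive CD4 cells had 0.955 ± 0.0751 and 1.68 ± 1.13 CPM, and CD4 Tem 2.87 ± 0.123 and 20.1 ± 4.80 CPM.

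In stimulated cells the subsets were Tcm and Tem. S100a10 stood at 315 ± 16 CPM in Tem and 47.0 ± 1.17 CPM in Tcm cells of the WT CD4 class, and at 621 ± 64.6 and 104 ± 14.1 CPM in SDHA-KO. Vim was likewise higher in Tem than Tcm in every stimulated library, 2.79 to 5.37 times in CD4 cells and 2.94 to 3.72 times in CD8 cells. Cd44, Itga4, Itgb1 and Itgal were lower in Tem than Tcm in every stimulated library, with ratios of 0.411 to 0.740. The mix of these subsets differed between the genotypes: Tem were 37.1% and 38.6% of stimulated WT and 79.2% and 82.6% of SDHA-KO CD4 cells, and 23.2% and 28.9% against 56.0% and 58.6% of CD8 cells. Tcm and Tem levels were therefore averaged first by each library's own cell shares and then by 1 mix, the mean share over the 4 stimulated libraries of a class, a calculation added after the data had been seen. These averages weight by cells and so differ from the class levels above, which weight by UMIs. From the own to the common mix, the SDHA-KO to WT ratio of S100a10 went from 3.53 to 2.00 in CD4 and from 2.87 to 1.73 in CD8 cells. The ratio of Itgb7 went from 0.537 to 0.629 and from 0.331 to 0.383, that of Itga4 from 1.57 to 1.97 and from 1.34 to 1.55, and that of Cd44 from 1.19 to 1.64 and from 1.38 to 1.59. Vim in CD4 cells went from 1.5 to 0.944 and in CD8 cells from 2.35 to 1.62, and Itgal in CD4 cells from 0.715 to 0.911. The ratio of Itgb1 went from 0.947 to 1.22 in CD4 and from 1.11 to 1.32 in CD8 cells. At a common mix, then, the ratios of S100a10 and Itgb7 lay nearer to 1 and those of Itga4 and Cd44 farther from it.

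**Figure D4:**
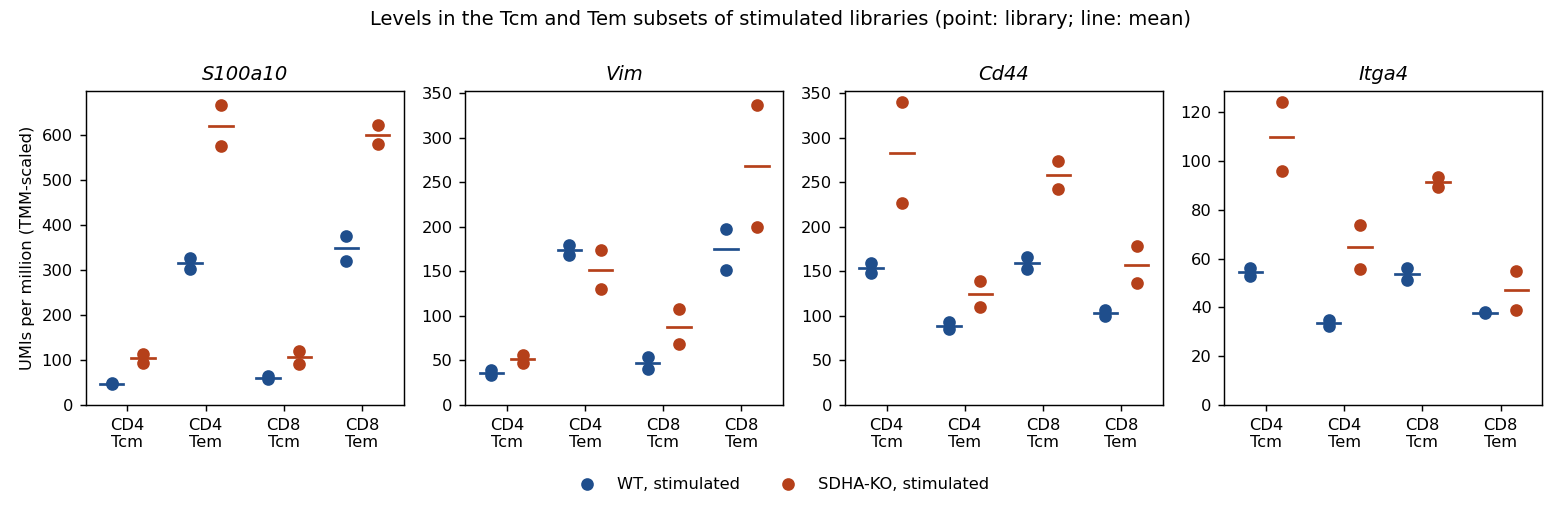
Levels of S100a10, Vim, Cd44 and Itga4 (vertical axis, TMM-scaled CPM, from 0) in the Tcm and Tem subsets of stimulated libraries by class; points are libraries and lines means of WT and SDHA-KO. S100a10 is 4.81 to 6.82 times higher in Tem than in Tcm in both genotypes, and Cd44 and Itga4 are higher in Tcm.

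SDHA-KO was then compared with WT within each of the 16 combinations of state, class and subset that had at least 50 cells in all 4 of its libraries. These fits rest on 2 residual degrees of freedom and share libraries, and for Cd44 and Itga4 they are conditioned on genes that named the subsets. In the 7 stimulated subsets 26 of 66 member tests passed (39.4%, background 20.9%), and in the 9 unstimulated subsets 13 of 84 (15.5%, background 2.57%). S100a10 was called higher in all 5 stimulated CD4 subsets, by 0.81 to 1.22, and in the CD8 Tem2 subset (0.51 ± 0.09, adjusted p = 0.0051), and not in CD8 Tcm4 (-0.16 ± 0.18, adjusted p = 0.66). In CD4 Tem3 it stood at 281 ± 25.0 CPM in WT and 675 ± 76.7 CPM in SDHA-KO, and in CD4 Tcm4 at 37.6 ± 0.397 and 85.1 ± 29.8 CPM. Itgb7 was called lower in 6 of the 7 stimulated subsets, with changes from -1.45 in CD8 Tcm4 to -0.51 in CD4 Tem3, and was -0.28 ± 0.19 (adjusted p = 0.39) in CD4 Tcm2. Itga4 was called higher in 4 of the 5 CD4 subsets (1.06 to 1.48) and in neither CD8 subset (0.02 and 0.34), and Cd44 in 4 of the 5 CD4 subsets (0.50 to 1.15) and in neither CD8 subset (0.02 and 0.23). Vim was called lower in CD4 Tem1 (-0.31 ± 0.09, adjusted p = 0.021) and Tem2 (-0.58 ± 0.12, adjusted p = 0.0094) and was 0.89 in CD8 Tem2 (adjusted p = 0.088). Itgb1 was called higher in CD4 Tem2 (0.43) and CD8 Tem2 (0.52), and Selplg in CD4 Tcm2 (0.47) and Tem3 (0.37). The LFA-1 chains Itgal and Itgb2 did not pass in the 7 stimulated subsets, where their values lay between -0.40 and 0.31; Itgal had an unadjusted p under 0.05 in 2 of them and Itgb2 in 0.

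Before stimulation Vim was the member most often called within subsets. Its value was above 0 in all 9 subsets and passed in 6, among them CD4 Naive2 (0.58 ± 0.11, adjusted p = 0.0013), Naive3 (0.70 ± 0.12, adjusted p = 0.0027) and Naive4 (0.62 ± 0.15, adjusted p = 0.025), Treg (0.64 ± 0.14, adjusted p = 0.028) and CD8 Naive2 (0.57 ± 0.12, adjusted p = 0.00027). In CD4 Tem1 it stood at 388 ± 60.0 CPM in WT and 943 ± 188 CPM in SDHA-KO (1.24 ± 0.13, adjusted p = 1.1e-08). CD4 Tem1, of 67 to 91 cells per library, held 5 calls among 10 members (background 7.83%). Beside Vim, Itgae, which rested on 2 UMIs in each WT library and 21 and 17 in SDHA-KO (2.71 ± 0.62, adjusted p = 0.0035, 2.89 ± 0.112 against 20.5 ± 5.06 CPM), Itgb7 (0.53 ± 0.13, adjusted p = 0.0072) and Selplg (0.50 ± 0.13, adjusted p = 0.013) were higher and Itgb1 was lower (-0.95 ± 0.11, adjusted p = 1.4e-07, 647 ± 23.1 against 345 ± 1.55 CPM). Itgae was also called higher in CD8 Naive1, from 50.6 ± 15.8 to 102 ± 16.1 CPM (1.06 ± 0.21, adjusted p = 0.012), and Selplg was called lower in CD4 Naive4 (-0.52 ± 0.12, adjusted p = 0.02) and CD8 Naive2 (-0.39 ± 0.12, adjusted p = 0.035). The part of the Trdc-bearing cells in these CD4 and CD8 subset differences was not tested.

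**Figure D5:**
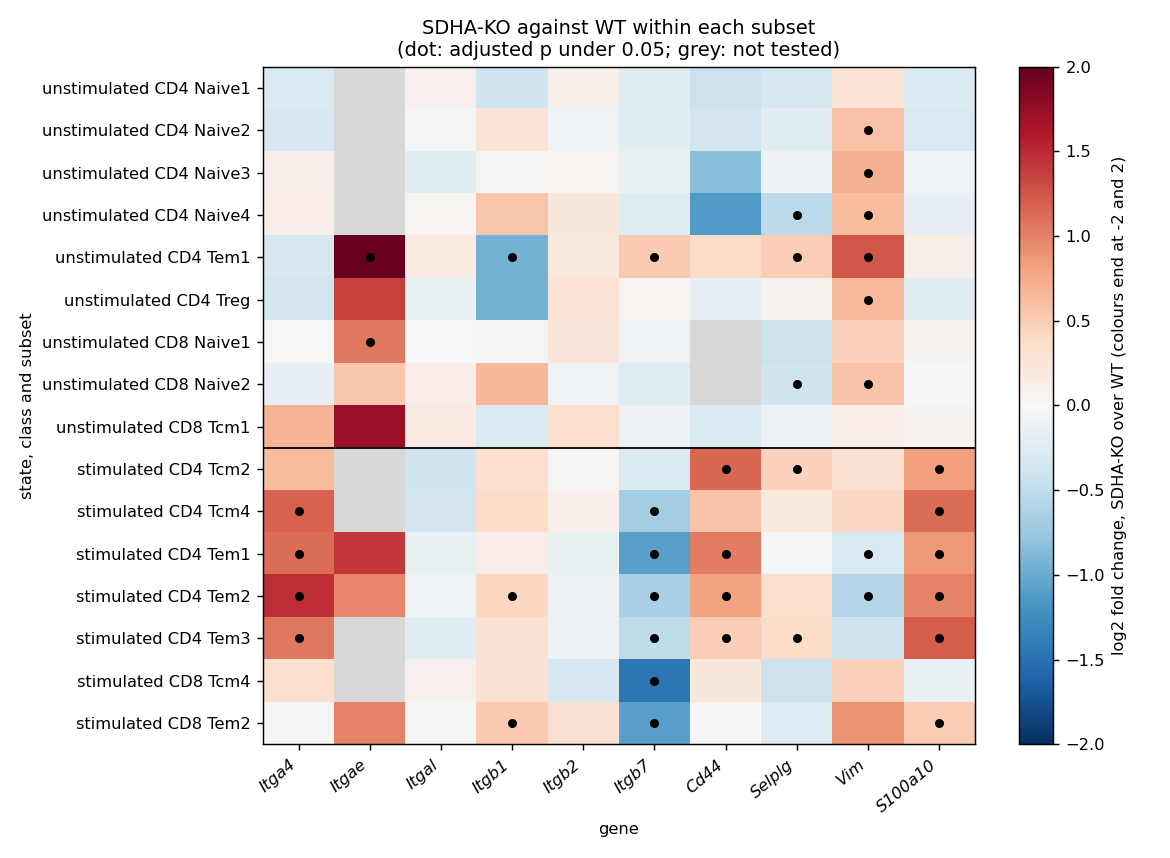
Log2 fold change of SDHA-KO over WT (colour, red higher and blue lower in SDHA-KO) for each gene (columns) in each state, class and subset tested (rows); dots mark an edgeR adjusted p under 0.05 and grey cells were not tested. The Vim column is red in all 9 unstimulated subsets, the S100a10 column in the 5 stimulated CD4 subsets, and the Itgb7 column is blue in all 7 stimulated subsets.

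The Trdc-bearing cells of the SDHA-KO CD8 class had their own levels. In stimulated SDHA-KO libraries S100a10 was 344 ± 7.58 CPM in CD8-class cells with a Trdc UMI and 643 ± 81.6 CPM in those without, against 198 ± 34.3 CPM in WT cells without. Vim was 243 ± 90.0 CPM with and 171 ± 39.7 CPM without Trdc, against 104 ± 28.0 CPM in WT cells without. Cd44 was 149.7 ± 16.5 and 215 ± 32.7 CPM, and 129 ± 3.13 CPM in WT cells without. Itgb7 was low in both, 23.0 ± 6.71 and 25.5 ± 4.83 CPM, against 69.0 ± 1.78 CPM in WT cells without. The WT CD8-class cells with Trdc, 31 and 41 per stimulated library, had 207 ± 39.8 CPM of S100a10 and 179 ± 23.2 CPM of Vim. Their Cd44 was 90.1 ± 5.54 CPM and their Itgb7 60.5 ± 7.31 CPM. Sdha was 73.1 ± 5.89 CPM in these WT cells and 73.1 ± 1.17 CPM in the SDHA-KO cells with Trdc. The lower Itgb7 and higher S100a10 of stimulated SDHA-KO CD8 cells were thus present in cells without a Trdc UMI. A cell without a Trdc UMI may still express the gene, and no test was made on these splits.

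Shares of cells with a UMI, for cells thinned to 5000 UMIs, are given for 3 genes. Thinning left out 5 to 99 cells of an unstimulated and 2 to 86 of a stimulated library and class. Itgae was found in 14.4% ± 1.65 (21.7% unthinned) of unstimulated WT and 24.7% ± 0.412 (39.0% unthinned) of SDHA-KO CD8 cells, and in 0.664% ± 0.0670 (1.06% unthinned) and 1.34% ± 0.282 (2.21% unthinned) of the CD4 cells, a class in which it stood near the lowest level measured. After stimulation, 43.0% ± 0.660 (69.1% unthinned) of WT and 77.2% ± 4.04 (90.4% unthinned) of SDHA-KO CD4 cells had an S100a10 UMI, and 38.1% ± 1.67 (71.9% unthinned) of WT and 15% ± 0.408 (48.2% unthinned) of SDHA-KO CD8 cells an Itgb7 UMI. No class of these libraries lacks S100a10 or Itgb7, so the share that free RNA gives was not measured for them.

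Of 155 further genes of adhesion and its machinery, 124 were tested in CD4 and 115 in CD8 cells. Stimulation of WT cells raised 35 and lowered 68 in CD4 cells (median log2 fold change -0.47) and raised 34 and lowered 62 in CD8 cells (-0.43). Over all genes tested, 36.2% were higher and 30.1% lower in CD4 cells, and 35.5% higher and 30.3% lower in CD8 cells. In the list of integrin activation and inside-out signaling, 2 of 22 genes tested were higher and 18 lower in CD4 cells and 1 higher and 18 lower in CD8 cells. Rasgrp2, an exchange factor for Rap1, went from 159.6 ± 3.19 to 11.2 ± 1.93 CPM (log2 -3.83 ± 0.11, adjusted p = 2.6e-10) in CD4 cells. Among the S100 proteins and annexins, 4 of 15 were higher and 9 lower in CD4 cells: Anxa2, the partner of S100a10, rose from 14.6 ± 3.33 to 116 ± 6.80 CPM (log2 2.99 ± 0.16, adjusted p = 1.7e-08), whereas S100a4 fell from 95.3 ± 2.33 to 2.54 ± 0.493 CPM (log2 -5.22 ± 0.35, adjusted p = 1.3e-07) and S100a6 fell from 120.3 ± 30.0 to 6.5 ± 2.17 CPM (log2 -4.22 ± 0.29, adjusted p = 1.7e-07). Alcam, an adhesion receptor that binds CD6, rose from 6.58 ± 0.0128 to 147 ± 9.43 CPM (log2 4.48 ± 0.13, adjusted p = 3.2e-10) in CD4 cells. In CD8 cells the largest falls among listed genes of at least 20 CPM were those of Rasgrp2 (from 142 ± 6.19 to 12.9 ± 1.09 CPM, log2 -3.45 ± 0.09, adjusted p = 3.2e-10), St3gal6, a sialyltransferase of selectin ligands (from 60.7 ± 1.86 to 7.45 ± 0.183 CPM, log2 -3.02 ± 0.12, adjusted p = 2.2e-09), and the actin cross-linker Actn1 (from 157 ± 5.24 to 27.7 ± 2.72 CPM, log2 -2.50 ± 0.14, adjusted p = 2.7e-08), and Slamf1 rose from 5.85 ± 1.02 to 50.5 ± 2.53 CPM (log2 3.13 ± 0.16, adjusted p = 2e-08). Hmmr, another hyaluronan-binding protein, was counted at a mean of 0.304 CPM or less in each unstimulated group and at 69.2 to 98.4 CPM in the stimulated ones. In SDHA-KO, Rasgrp2 fell too, from 162 ± 0.255 to 12 ± 0.670 CPM (log2 -3.75 ± 0.11, adjusted p = 3e-10) in CD4 and from 145 ± 4.19 to 9.69 ± 0.741 CPM (log2 -3.91 ± 0.10, adjusted p = 2.1e-10) in CD8 cells.

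Before stimulation 1 of these 124 genes differed between SDHA-KO and WT in CD4 cells, Rap1gap2 (1.39, adjusted p = 0.025; named after its value was seen), and 1 of 115 in CD8 cells, S100a6 (from 27.8 ± 1.11 to 74.9 ± 1.72 CPM, log2 1.43 ± 0.25, adjusted p = 0.03). These counts were near the background, 1.1% of all genes in CD4 and 0.947% in CD8 cells. In stimulated cells 48 were higher and 26 lower in SDHA-KO CD4 cells (median 0.18) and 37 higher and 26 lower in CD8 cells (median 0.03), beside the 43.2% and 50.4% of all genes that passed. The S100 proteins and annexins went with S100a10, 11 higher and 2 lower of 15 in CD4 cells (median 0.80) and 9 higher and 0 lower of 13 in CD8 cells (median 0.53). These are whole-class values, and the part of the larger Tem share of stimulated SDHA-KO cells in them was not tested. S100a6 rose from 6.5 ± 2.17 to 46.7 ± 13.6 CPM (log2 2.85 ± 0.28, adjusted p = 2e-05) in CD4 and from 13.1 ± 5.69 to 97.6 ± 7.74 CPM (log2 2.90 ± 0.20, adjusted p = 1.6e-06) in CD8 cells, and S100a11 from 50.3 ± 6.37 to 163 ± 24.3 CPM (log2 1.70 ± 0.11, adjusted p = 1.4e-06) and from 49.8 ± 12.7 to 122 ± 13 CPM (log2 1.28 ± 0.14, adjusted p = 2.5e-05). Ahnak, a large scaffold that binds S100a10 and annexin A2, fell in CD4 cells from 38.6 ± 1.92 to 16.6 ± 1.58 CPM (log2 -1.22 ± 0.12, adjusted p = 1.9e-05). Of the other integrin subunits 2 of 16 were higher and 4 lower in CD4 cells, Itga6, a laminin receptor chain, from 33.8 ± 0.826 to 17.6 ± 2.72 CPM (log2 -0.94 ± 0.10, adjusted p = 3.5e-05). Pecam1, an endothelial and leukocyte adhesion receptor, was lower in both classes, from 47.4 ± 0.391 to 23.2 ± 3.43 CPM (log2 -1.03 ± 0.10, adjusted p = 2.4e-05) in CD4 and from 34.7 ± 1.74 to 15.6 ± 1.66 CPM (log2 -1.16 ± 0.12, adjusted p = 1.7e-05) in CD8 cells. Cd96, a receptor for the poliovirus receptor, rose from 19.6 ± 1.30 to 41.3 ± 1.76 CPM (log2 1.07 ± 0.08, adjusted p = 4.1e-06) in CD4 cells, and Rasgrp1 (from 70.4 ± 2.78 to 31.5 ± 3.20 CPM, log2 -1.16 ± 0.08, adjusted p = 2.3e-06) and B4galt1 (from 57.2 ± 2.13 to 28.4 ± 0.545 CPM, log2 -1.01 ± 0.09, adjusted p = 5.4e-06) were lower in CD8 cells. Cd74 was higher in SDHA-KO CD8 cells, from 11.3 ± 2.26 to 51.9 ± 43.0 CPM (log2 2.21 ± 0.45, adjusted p = 0.0017). Cd74 is expressed by B cells and other antigen-presenting cells, and 1 of these SDHA-KO libraries had the high B cell marker sum. The myeloid marker sum was 126 and 123 CPM in these SDHA-KO libraries and 75.2 and 76.8 CPM in WT. The part of B cell or myeloid RNA in the Cd74 difference was not tested.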

How the data were processed

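The authors prepared 10x 3′ libraries of splenic T cells, ran bcl2fastq and Cell Ranger on mm10, and deposited UMI counts per gene and cell as raw counts, with a cell table. Versions are not given in the sources used here. Per the study's methods, cells with many detected genes and clusters without Cd3 transcripts had been removed; doublets were not called again here. The deposited cell table gives the percent of mitochondrial UMIs, a log10 ratio of Cd4 to Cd8a, the CD4 or CD8 class, and the subset of each cell, all made by the authors. Library names were matched to the labels, and nt was read as unstimulated.

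UMIs were summed per library and class or subset. Genes were kept by filterByExpr (minimum count 10, minimum total 15), scaled by TMM and tested two-sided with the edgeR 4.0.16 quasi-likelihood test in R 4.3.3, with Benjamini-Hochberg adjustment over all genes tested (14264 in CD4, 13095 in CD8 and 14235 in both together) and a threshold of 0.05. Each class was fitted over its 8 sums (4 residual degrees of freedom). The difference between classes was fitted over 16 sums with the library as a block, and each subset over 4 sums. CPM are TMM-scaled, and the error after ± is the SD over 2 libraries, or the standard error for a log2 fold change. Alternatives were RLE size factors, library totals alone, no filter, DESeq2 1.42.0, only the libraries compared, the replicate number as a block, the strict class, cells under 10% mitochondrial UMIs and leaving out each library. The scripts were tested on simulated data. The members, the 155 related genes and the tests were chosen with earlier results of these data known. Related genes were named from those with the 3 largest called changes per direction in a comparison, at a mean of 20 CPM or more and with no overlap between libraries. Intervals cover counting error only.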

Additional observations from a re-analysis of the deposited data

Results flagged for a closer look

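The results here are those in which an effect differed between states or between classes by a test of the difference itself (edgeR, adjusted p under 0.05). The SDHA-KO effect in stimulated minus that in unstimulated CD4 cells was 1.47 for S100a10, 0.82 for Itga4, 0.71 for Itgb1, -0.41 for Itgal and -0.82 for Itgb7 on the log2 scale. The Itgal call was lost among cells under 10% mitochondrial UMIs, and the Itga4 call without the second unstimulated WT library. In CD8 cells it was 1.17 for S100a10, -0.87 for Itgae and -1.31 for Itgb7; the Itgae difference became 0.022 among cells under 10% mitochondrial UMIs.

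The SDHA-KO effect in stimulated CD8 minus CD4 cells was -0.69 for Selplg, -0.67 for Itgb7, -0.35 for Itga4, 0.26 for Itgal and 0.79 for Vim. In the strict classes the calls of Itga4, Itgal and Vim were lost. The stimulation effect in WT CD8 minus CD4 cells was -3.43 for Itgae, 1.05 for Itgb1, 0.74 for Cd44 and 0.34 for Itgb7. That Itgb7 call was lost in DESeq2 and without some of the WT libraries. Trdc-bearing cells made up 59.1% and 56.1% of the stimulated SDHA-KO CD8 class, and their part in these differences was not tested beyond the strict class.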

How the results depend on the processing

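With 2 libraries a group, and with as few as 11 Itgae UMIs in a CD4 library, a difference that missed the threshold is not shown to be absent. Across the class fits 1464 member values kept direction and side of the threshold, 44 gained and 68 lost a call and 4 reversed; in the difference fits these numbers were 353, 20, 16 and 1, and within subsets 1216, 45, 81 and 1. Without composition scaling the median log2 change of all genes on stimulation was 0.26 to 0.57, against 0.03 to 0.10 as reported. Causes were not tested.

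Reversed values were Itgal in WT CD4 cells on stimulation among cells under 10% mitochondrial UMIs (-0.32), Itgb2 in WT CD8 cells on stimulation without composition scaling (0.38), S100a10 in SDHA-KO CD8 cells on stimulation in the strict class (0.38), the Itgae state difference in CD8 cells under 10% mitochondrial UMIs (0.022), the S100a10 class difference of the SDHA-KO effect in stimulated strict classes (0.36) and Itga4 in stimulated CD8 Tem2 in the strict class (-1.39).

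Members called for SDHA-KO against WT in unstimulated CD4 cells numbered 1 with RLE size factors and 1 in the strict class (2 as reported), and in unstimulated CD8 cells 2 with only the libraries compared and 0 under 10% mitochondrial UMIs (1 as reported). The CD4 state difference had 8 without a filter. The class difference of the SDHA-KO effect had 1 unstimulated without a filter and 1 in the strict class, and 3 stimulated by DESeq2; that of stimulation in WT had 8 without composition scaling. Genes called fell from 157 to 18 without the first unstimulated WT library in CD4 and from 124 to 10 without the second in CD8 cells, and reached 643 without a filter and 338 with only the libraries compared.

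Leaving out 1 library gave 7 to 7 members called for stimulation in WT CD4 cells, 9 to 10 in SDHA-KO CD4, 0 to 2 for SDHA-KO unstimulated CD4, 4 to 6 stimulated CD4 and 4 to 7 for their difference; in CD8 cells 8 to 9, 6 to 8, 0 to 1, 5 to 6 and 2 to 3; and for the class differences 0 to 1, 4 to 6 and 2 to 6. Within subsets 39 calls became 30 to 38, 28 by DESeq2 and 47 without a filter.

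Deviations of same-numbered libraries correlated at -0.16 to 0.04, which cannot tell whether such libraries shared mice or a preparation. With the replicate block 4 members were called for SDHA-KO in stimulated CD4 cells, 6 for the CD4 state difference and 44 within subsets.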
